A study of Mus musculus with 27 samples.

Results

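Chga, Chgb, Tph1, Insl5, Pyy, Gcg, Sct, Sst and Neurod1 are genes of the enteroendocrine lineage of the gut, and they were followed in the colon of Il10-/- and wild-type mice. Every probe set annotated to 1 of these 9 genes was taken, which gave 10 of the 45101 probe sets of the array and 9 of the 18193 genes tested. They were taken as a list of named genes and not by a cut on measured values, but earlier results of these data were known. All 9 genes were in the fit. Neurod1 had 2 probe sets and each of the other 8 genes had 1. In build GRCm38.p6 Chgb, Gcg and Neurod1 lie on chromosome 2, Sct and Tph1 on chromosome 7, and Insl5, Pyy, Chga and Sst on chromosomes 4, 11, 12 and 16. The probe sets were 1418149_at for Chga, 1415885_at for Chgb, 1419524_at for Tph1, 1449493_at for Insl5, 1424865_at for Pyy, 1425952_a_at for Gcg, 1418805_at for Sct, 1417954_at for Sst, and 1426412_at and the dimmer 1426413_at for Neurod1, of which the former was used.

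Enteroendocrine cells are scattered hormone-secreting cells of the intestinal epithelium. They arise from the same crypt stem cells as absorptive and goblet cells, sense the contents of the lumen, and release peptides or serotonin from dense-core granules. In the colon, enterochromaffin cells make serotonin, L cells make peptide YY, the glucagon-like peptides and insulin-like peptide 5, and D cells make somatostatin. Granins are acidic proteins packed into the granules of all of these cells, so they are used as general markers.

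The study compared Il10-/- mice raised conventionally (conventional knockouts), Il10-/- mice raised under specific pathogen free conditions (SPF knockouts) and wild-type mice raised conventionally, the control group. Mice lacking interleukin-10 are a model of colitis. Each kind was sampled at 7, 9 and 12 weeks of age, with 3 arrays per group and 27 arrays in all, 1 array per sample of full-thickness colon. The authors chose the 3 samples of each group by colon length and colonic damage, so the spread within a group is that of selected animals. No wild types were raised under SPF conditions, so a difference between SPF knockouts and wild types joins genotype and housing, which cannot be told apart. Strain, knockout allele and any pooling of animals are not stated, and p-values measure only the spread between these samples. Full-thickness colon also holds muscle, nerve and immune cells, and in such bulk tissue fewer enteroendocrine cells and less RNA per cell cannot be told apart.

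Values are log2 expression as deposited, and array medians lay between 4.92 and 4.99. The lowest Spearman correlation between any 2 arrays was 0.953. The 1 probe set for Il10 read 4.66 to 7.09 (median 5.26) on the 18 arrays labelled knockout and 3.51 to 3.83 (median 3.72) on the 9 wild-type arrays. Its level was thus higher in the arrays labelled knockout, and the position of the probe relative to the deleted part is not given, so it does not check the genotype. Groups are therefore named by their labels throughout, and every direction below rests on those labels.

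The promoters of 4 of the genes are shown as examples of stretches that hold the short motifs searched. All 9 genes were found in the RefSeq table of promoters for build GRCm38.p6, which covers 250 bases before to 50 bases after each start. Each line gives 150 bases of the gene's own strand, 5′ to 3′, with the motif in capitals. The motif is TGACGTCA (a cAMP response element) in Sst and Chgb, its first part TGACG in Chga, and the E-box CAGATG, a sequence that NeuroD1 can bind, in Gcg. The windows are chr16:23890845-23890994 on the minus strand for Sst, chr2:132781492-132781641 on the plus strand for Chgb, chr12:102554791-102554940 on the plus strand for Chga and chr2:62483654-62483803 on the minus strand for Gcg.
Sst: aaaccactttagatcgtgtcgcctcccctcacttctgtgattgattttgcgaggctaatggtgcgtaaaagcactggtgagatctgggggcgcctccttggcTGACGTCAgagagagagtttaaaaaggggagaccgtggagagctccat
Chgb: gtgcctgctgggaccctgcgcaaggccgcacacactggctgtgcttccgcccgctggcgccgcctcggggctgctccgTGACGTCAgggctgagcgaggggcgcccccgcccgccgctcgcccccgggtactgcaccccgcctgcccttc
Chga: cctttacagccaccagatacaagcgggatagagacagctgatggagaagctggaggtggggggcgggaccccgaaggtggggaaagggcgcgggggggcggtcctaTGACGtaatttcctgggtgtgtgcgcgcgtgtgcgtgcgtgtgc
Gcg: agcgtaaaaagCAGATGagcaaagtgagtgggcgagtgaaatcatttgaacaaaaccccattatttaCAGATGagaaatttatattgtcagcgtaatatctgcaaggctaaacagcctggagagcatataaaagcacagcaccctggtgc

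On both strands, TGACGTCA was present in 588 of 32851 RefSeq promoters (1.79%) and in those of Chgb, starting at base -72 from the gene's start, and Sst, at -48. TGACG, which TGACGTCA contains, was present in 20.8% of promoters and in 4 of the 9 genes, namely Chga at -44, Chgb, Sst and Tph1 at -36. CAGATG was present in 17.2% of promoters and in 3 of the 9 genes. Gcg held it at -139 and at -83, Insl5 at -178 and Sct at -242. The E-box CAGCTG was present in 16.3% of promoters and in Chga, Chgb and Sct. These are matches of letters only, and binding was not measured. In the data below, Chgb and Sst share the full element, and both were lower in SPF knockouts at 12 weeks, as were 6 other members without it in these windows.

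In wild types no member was called as changing with age. Chromogranin A (Chga), a granin of nearly all endocrine cells, read 8.26, 8.20 and 8.67 at 7 weeks, 8.57, 8.21 and 8.47 at 9 weeks and 9.19, 8.15 and 8.02 at 12 weeks. At 12 weeks wild-type replicate 1 stood above the other 2, and otherwise the wild-type arrays lay within about the same range. None of the 9 members was called between 9 and 7 weeks (0.0055% of all genes were), between 12 and 9 weeks (0% of all genes) or between 12 and 7 weeks (0.121% of all genes). In the limma fit described below, 1 member, Sct at 0.61, had an unadjusted p under 0.05 at 12 against 9 weeks. None had in the other 2 comparisons. Pyy was at -0.56 at 12 against 9 weeks. Chga differed by 0.08 ± 0.39 (log2 difference ± SE) between 12 and 7 weeks.

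**Figure D1:**
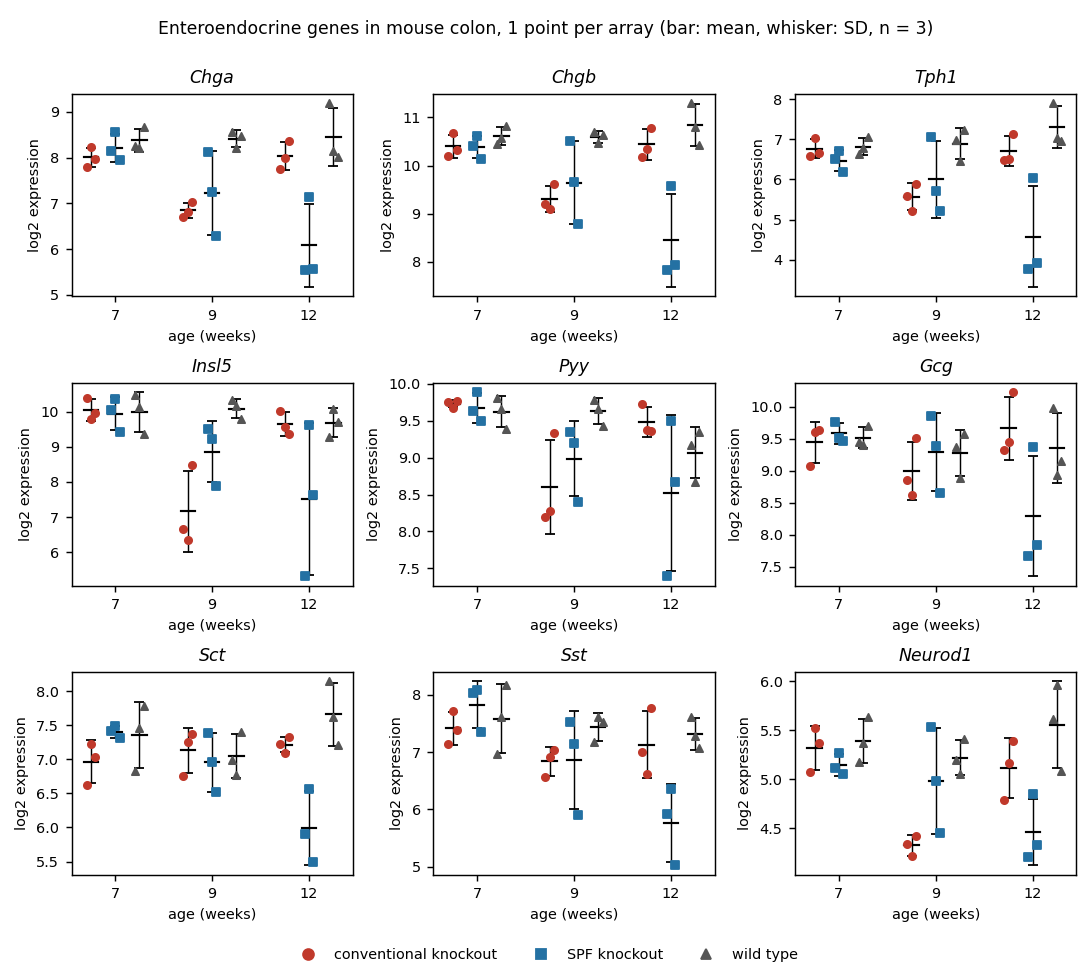
Deposited log2 expression (vertical axis) of each of the 9 genes in each array, by age in weeks (horizontal axis) and kind of mice. Points are arrays, bars are means of 3 arrays and whiskers are SDs. In most panels low points belong to conventional knockouts at 9 weeks and SPF knockouts at 12 weeks, with 1 SPF knockout at 12 weeks (replicate 2) above the other 2. Replicate 3 of the SPF knockouts at 9 weeks was low too. It lay below every conventional knockout of that age for Chga, Chgb, Sst and Sct.

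The orders of the 9 groups differed between genes, and the lowest group was mostly the same. SPF knockouts at 12 weeks had the lowest group mean for 7 of the 9 genes, and conventional knockouts at 9 weeks for Insl5 and Neurod1. For Chga the group means ± SD (n = 3) ran from 6.08 ± 0.91 in SPF knockouts at 12 weeks through 6.85 ± 0.17 in conventional knockouts at 9 weeks and 7.23 ± 0.92 in SPF knockouts at 9 weeks. The other 6 groups lay above these, up to 8.45 ± 0.64, with the 3 wild-type groups highest. Neighbours in these orders mostly did not differ beyond their spread. Over the 9 genes, 3 of 72 gaps between neighbouring groups were larger than the larger SD of the pair. These were the gap of 0.97 for Sct and of 1.07 for Sst above SPF knockouts at 12 weeks, and a gap of 0.42 for Pyy between wild types and conventional knockouts at 12 weeks.

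Conventional knockouts and wild types share the housing and differ in the genotype label. Whether they also differ in strain is not stated. At 9 weeks 6 of the 9 members were lower in conventional knockouts and none was higher. Insl5 was lowest in proportion, at 7.60-fold lower, followed by Chga, Tph1, Chgb, Pyy and Neurod1. Over all genes 9.86% were called lower and 14.2% higher at a Benjamini-Hochberg adjusted p under 0.05 in limma, which is the rule for every call below. The median difference of the 9 members was -1.02 on the log2 scale, and that of all genes was 0.00023.

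The granins were lower together at 9 weeks. Chga read 6.70, 6.82 and 7.03 in the conventional knockouts, against 8.57, 8.21 and 8.47 in wild types, so the groups did not overlap. The difference was -1.56 ± 0.39 (log2 difference ± SE, n = 3 against 3, limma adjusted p = 0.00605), or 2.95-fold lower. Chromogranin B (Chgb), a second granin of the same granules, read 9.20, 9.09 and 9.62 against 10.71, 10.46 and 10.63, again without overlap. Chgb differed by -1.30 ± 0.37 (adjusted p = 0.0139). Without conventional knockout replicate 1 or 2 of that age, Chgb missed the threshold, at adjusted p = 0.0579 and 0.0572. Tph1, the tryptophan hydroxylase that starts serotonin synthesis in enterochromaffin cells, read 5.59, 5.22 and 5.89 against 6.98, 6.46 and 7.22. It differed by -1.32 ± 0.45 (adjusted p = 0.0366), 2.49-fold lower, and the groups did not overlap. Without conventional knockout replicate 1 or 2 its adjusted p was 0.0973 and 0.13, and its call was also lost without wild-type replicate 1 or 3.

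Of the L-cell hormones, Insl5 and Pyy were called and Gcg was not, and whether their differences differ was not tested. Insl5, an insulin-like peptide of colonic L cells, read 6.65, 6.35 and 8.47 in conventional knockouts at 9 weeks and 10.32, 10.14 and 9.80 in wild types. Replicate 3 stood well above the other 2 knockouts and still below every wild type. The difference was -2.93 ± 0.68 (adjusted p = 0.0041), and -3.58 without replicate 3. Pyy, which encodes the appetite- and motility-inhibiting peptide YY, read 8.19, 8.28 and 9.34 against 9.78, 9.66 and 9.43 and also had replicate 3 highest. It differed by -1.02 ± 0.36 (adjusted p = 0.0403, 2.03-fold lower), and by -0.82 without conventional knockout replicate 1 (adjusted p = 0.189). Without replicate 2 its adjusted p was 0.149, and its call was also lost without any 1 of the 3 wild types. Gcg, the proglucagon gene whose product is cut to glucagon-like peptides in L cells, overlapped between the groups, with 8.86, 8.62 and 9.51 against 9.37, 8.88 and 9.57, and replicate 3 was the highest knockout here too. Gcg differed by -0.28 ± 0.38 (adjusted p = 0.648).

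Sct, which encodes the bicarbonate-releasing hormone secretin, read 6.76, 7.26 and 7.38 in conventional knockouts at 9 weeks and 6.99, 6.76 and 7.40 in wild types. The groups overlapped and the difference was 0.08 ± 0.28 (adjusted p = 0.871). Sst, the somatostatin gene of D cells and of some enteric neurons, read 6.56, 6.91 and 7.05 against 7.17, 7.62 and 7.53. Its arrays did not overlap, but the difference of -0.60 ± 0.38 was not called (adjusted p = 0.273). Neurod1, a transcription factor that drives late enteroendocrine differentiation, read 4.35, 4.22 and 4.43 against 5.20, 5.06 and 5.41. It was 1.86-fold lower without overlap, by -0.89 ± 0.23 (adjusted p = 0.00827). Its second, dimmer probe set differed by -0.42 ± 0.13 (adjusted p = 0.0309 over all probe sets). In all, 7 members had every conventional knockout below every wild type, which was so for 19.8% of all genes. Chga, Insl5 and Neurod1 stayed called when any 1 of the 27 arrays was left out.

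At 7 and at 12 weeks no member was called between conventional knockouts and wild types. Over all genes 0.506% were called at 7 weeks and 0.451% at 12 weeks, and no member had an unadjusted p under 0.05 at either age in limma. The members' median difference was -0.07 at 7 weeks and -0.40 at 12 weeks. At 12 weeks Insl5 read 10.03, 9.55 and 9.35 in conventional knockouts against 9.27, 10.07 and 9.71 in wild types, with overlapping groups. Chga differed by -0.42 ± 0.39 at that age (95% interval -1.23 to 0.38). The interval at 9 weeks was -2.37 to -0.76 and overlaps it.

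SPF knockouts were compared with wild types in the same way, with genotype and housing both changed. At 7 weeks no member was called, while 0.055% of all genes were, and none had an unadjusted p under 0.05 in limma. At 9 weeks 1 of the 9 members was lower, where 4.43% of all genes were lower and 7.41% higher. That member was Chga, with 8.13, 7.25 and 6.29 in SPF knockouts, spread over more than any other group at this age, against 8.57, 8.21 and 8.47 in wild types. Of the 9 members 8 had a negative difference, and the median was -0.64. Its difference of -1.19 ± 0.39 (adjusted p = 0.0489) became -0.72 without SPF knockout replicate 3 (adjusted p = 0.339), and its adjusted p was 0.0878 without replicate 2. In all, 20 of the 27 fits that left out 1 array lost this call. Chgb, at -0.95 ± 0.37 (adjusted p = 0.0937), and Insl5, at -1.23 ± 0.68 (adjusted p = 0.249), were not called.

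At 12 weeks 8 of the 9 members were lower in SPF knockouts than in wild types, all except Pyy. The folds ran from 6.61-fold lower for Tph1 to 2.09-fold lower for Gcg. Over all genes 16.6% were lower and 18.2% higher, and the median difference was -1.67 over the members and 0.020 over all genes. In 6 members (Chga, Chgb, Tph1, Sct, Sst and Neurod1) every SPF knockout lay below every wild type, as in 15.8% of all genes.

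Among the granins and the serotonin gene, Chga read 5.54, 7.14 and 5.57 in SPF knockouts at 12 weeks and 9.19, 8.15 and 8.02 in wild types. SPF knockout replicate 2 stood nearest to the wild types in these genes. Chga differed by -2.37 ± 0.39 (adjusted p = 0.000148) and Chgb by -2.40 ± 0.37 (adjusted p = 9.25e-05). Chgb read 7.83, 9.57 and 7.93 against 11.30, 10.79 and 10.44. Tph1 read 3.78, 6.03 and 3.91 against 7.90, 7.03 and 6.97, a difference of -2.72 ± 0.45 (adjusted p = 0.000162). All 3 genes had the same array apart, and without it their differences were -2.90, -2.96 and -3.45.

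Insl5 read 5.31, 9.62 and 7.63 in SPF knockouts at 12 weeks against 9.27, 10.07 and 9.71 in wild types. Replicate 2 lay within the wild types' range and replicate 1 far below it. The difference of -2.16 ± 0.68 (adjusted p = 0.0169) was -1.06 without SPF knockout replicate 1 (adjusted p = 0.185) and -3.21 without replicate 2. Its call was also lost without wild-type replicate 2 and with only these 6 arrays. Gcg read 7.67, 9.38 and 7.84 against 9.98, 8.94 and 9.16 and differed by -1.06 ± 0.38 (adjusted p = 0.0313). Its call was lost without SPF knockout replicate 1 (-0.75, adjusted p = 0.184) or 3 (-0.84, adjusted p = 0.147), and the difference was -1.60 without replicate 2. Wild-type replicate 1 and the fit of these 6 arrays alone also ended it. Pyy read 7.39, 9.49 and 8.67 against 9.18, 8.68 and 9.34 and was not called, at -0.55 ± 0.36 (95% interval -1.29 to 0.19, adjusted p = 0.258).

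Secretin, somatostatin and Neurod1 were lower as well. Sct read 5.91, 6.57 and 5.49 in SPF knockouts at 12 weeks against 8.15, 7.62 and 7.21, at -1.67 ± 0.28 (adjusted p = 0.000179, 3.19-fold lower). Sst read 5.93, 6.36 and 5.02 against 7.61, 7.27 and 7.07, at -1.55 ± 0.38 (adjusted p = 0.00308). In neither gene did the groups overlap. Neurod1 read 4.21, 4.85 and 4.33 against 5.62, 5.97 and 5.09, a difference of -1.10 ± 0.23 (adjusted p = 0.00108), and its second probe set differed by -0.56 (adjusted p = 0.00274). Chga, Chgb, Tph1, Sct, Sst and Neurod1 kept their calls when any 1 array was left out.

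**Figure D2:**
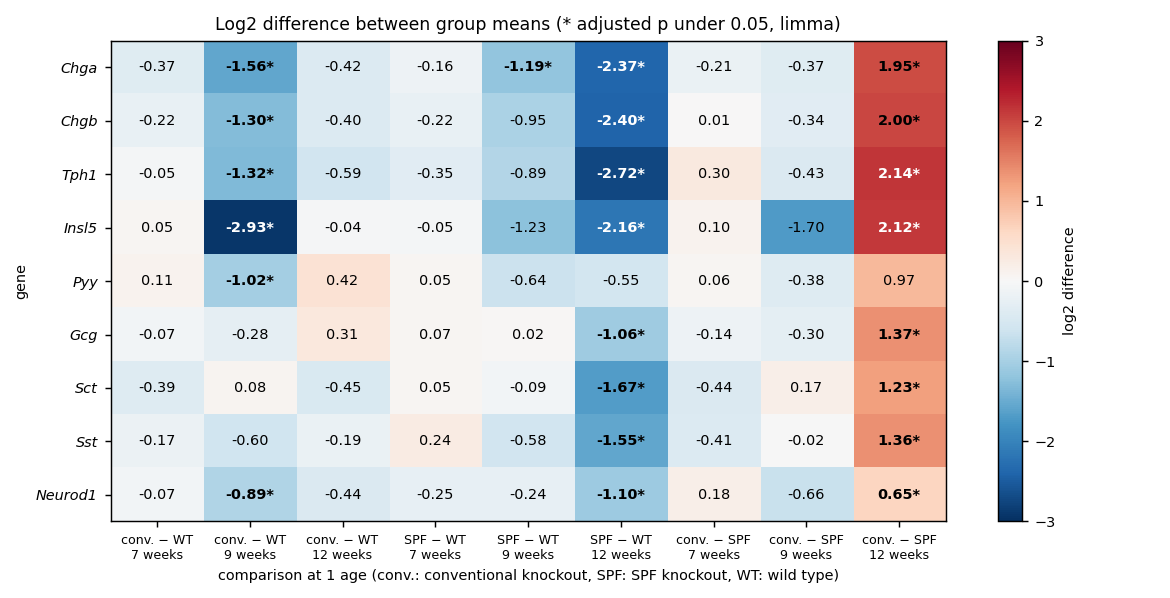
Log2 difference of group means for the 9 genes (rows) in the 9 comparisons of kinds at an age (columns), from the limma fit of all 27 arrays. Blue marks lower and red higher in the kind named first, and an asterisk marks an adjusted p under 0.05. The asterisks lie in conventional knockouts against wild types at 9 weeks (6), SPF knockouts against wild types at 9 (1) and 12 weeks (8), and conventional against SPF knockouts at 12 weeks (8).

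Conventional and SPF knockouts carry the same genotype label and differ in housing. At 7 weeks no member was called between them (0.269% of all genes were, and no member had an unadjusted p under 0.05). At 9 weeks no member was called either, and nor was any gene (0%). In limma 2 members had an unadjusted p under 0.05 at 9 weeks, Insl5 at -1.70 ± 0.68 (adjusted p = 0.502) and Neurod1 at -0.66 (adjusted p = 0.381). At 12 weeks 8 members were higher in conventional knockouts, where 11.1% of all genes were higher and 13.6% lower, and the median was 1.37 over the members and 0.0065 over all genes.

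Tph1 was 4.40-fold higher in conventional than in SPF knockouts at 12 weeks (2.14 ± 0.45, adjusted p = 0.00311), with 6.49, 6.51 and 7.14 against 3.78, 6.03 and 3.91. Insl5 differed by 2.12 ± 0.68 (adjusted p = 0.0267), Chgb by 2.00 ± 0.37 (adjusted p = 0.0021) and Chga by 1.95 ± 0.39 (adjusted p = 0.00256). Chga read 7.76, 7.99 and 8.36 in the conventional knockouts, so its lowest array lay above the highest SPF knockout. Gcg was at 1.37 ± 0.38 (adjusted p = 0.0114), Sst at 1.36 ± 0.38 (adjusted p = 0.0125), Sct at 1.23 ± 0.28 (adjusted p = 0.0046) and Neurod1 at 0.65 ± 0.23 (adjusted p = 0.0439). The second Neurod1 probe set differed by 0.54 (adjusted p = 0.00813 over all probe sets). In that fit the first probe set was not called (adjusted p = 0.0541). The Neurod1 call was lost in 12 of the 27 fits that left out 1 array. It was also lost when the values were quantile normalized again or centred on pan-epithelial markers. Pyy, at 0.97 ± 0.36, missed the threshold (adjusted p = 0.0508). Chga, Chgb, Tph1, Sct and Sst did not overlap between the groups, as was so for 13.9% of all genes. With a fit of these 6 arrays alone, whose spread is then estimated from 2 groups, none of the 8 calls held (adjusted p between 0.111 and 0.208). Without conventional knockout replicate 3, SPF knockout replicate 1 or SPF knockout replicate 3 of that age, 5, 5 and 4 members were called.

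Averaged over the 3 ages, 3 members were lower in conventional knockouts than in wild types, where 7.02% of all genes were. They were Chga at -0.78 ± 0.22 (adjusted p = 0.0184), Chgb at -0.64 (adjusted p = 0.0404) and Neurod1 at -0.47 (adjusted p = 0.019). The call of Chgb was lost in 13 of the 27 fits that left out 1 array. For SPF knockouts 7 members were lower (16% of all genes), from -1.32 for Tph1 to -0.53 for Neurod1, and Pyy (-0.38) and Gcg (-0.32) were not called. Insl5 and Sst lost that call in 5 and 6 of the 27 fits that left out 1 array. Between conventional and SPF knockouts no member and no gene (0%) was called on average over the ages, and 2 members had an unadjusted p under 0.05 in limma. The comparisons with wild types share the wild-type arrays.

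Ages were compared within each kind of knockouts. In conventional knockouts Insl5 changed from 7 to 9 weeks by -2.88 ± 0.68 (adjusted p = 0.0115), Pyy by -1.13 ± 0.36 (adjusted p = 0.0458) and Neurod1 by -0.99 ± 0.23 (adjusted p = 0.0108). These were 3 of the 9 members, against 5.1% of all genes, and Chga (-1.15, adjusted p = 0.0594), Chgb (-1.10, adjusted p = 0.0599) and Tph1 (-1.20, adjusted p = 0.0909) missed the threshold. From 9 to 12 weeks Insl5 rose by 2.49 ± 0.68 (adjusted p = 0.0317) and Neurod1 by 0.79 ± 0.23 (adjusted p = 0.0426), 2 of the 9 members against 1.94% of all genes. Between 7 and 12 weeks no member was called, nor any gene (0%), and none had an unadjusted p under 0.05 in limma. Different animals were sampled at each age, so these are differences between groups and not courses of single animals. Without conventional knockout replicate 1 or 2 of 9 weeks, 1 member was called from 7 to 9 weeks and 0 from 9 to 12 weeks. Over all 27 fits that left out 1 array, Pyy lost its call from 7 to 9 weeks in 20, and Neurod1 its call from 9 to 12 weeks in 13.

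In SPF knockouts all 9 members were lower at 12 than at 7 weeks, where 14.1% of all genes were lower. The differences were -2.42 for Insl5, -2.13 for Chga, -2.06 for Sst, -1.95 for Chgb, -1.89 for Tph1, -1.42 for Sct, -1.29 for Gcg, -1.15 for Pyy (adjusted p = 0.0189) and -0.68 for Neurod1 (adjusted p = 0.0316). With only the groups compared, 2 of these calls held, those of Sct and Sst. The neighbouring steps were not called. From 7 to 9 weeks no member passed (0.726% of all genes did, and 2 members had an unadjusted p under 0.05). From 9 to 12 weeks no gene passed (0%), and 7 members had an unadjusted p under 0.05 in limma. Without SPF knockout replicate 2 of 12 weeks 9 members passed this step, without replicate 3 of 9 weeks 7 did, and without replicate 1 of 12 weeks 5 members passed between 7 and 12 weeks.

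Whether a difference between kinds itself differed between ages was tested as an interaction. The difference of conventional from SPF knockouts was higher at 12 than at 9 weeks for 6 members, against 7.93% of all genes. Insl5 had the largest such value, at 3.82 ± 0.97 (adjusted p = 0.0107), followed by Tph1 at 2.57, Chgb at 2.34, Chga at 2.33, Gcg at 1.67 and Neurod1 at 1.31. The difference of SPF knockouts from wild types was lower at 12 than at 7 weeks for 5 members, against 5.01% of all genes. These were Tph1 (-2.37), Chga (-2.21), Chgb (-2.18), Sst (-1.79) and Sct (-1.72). The difference of conventional from SPF knockouts was higher at 12 than at 7 weeks for 4 members, Chga, Chgb, Sst and Sct, against 3.39% of all genes. For conventional knockouts against wild types no member's difference was called as changing from 7 to 9 weeks (2.01% of all genes) or from 9 to 12 weeks (1.82% of all genes). In limma 4 and 3 members had an unadjusted p under 0.05 there. For Insl5 these interactions were -2.98 ± 0.97 (adjusted p = 0.0965) and 2.89 ± 0.97 (adjusted p = 0.093), so its difference at 9 weeks is not shown to differ from that at the other ages. The 5 and 4 calls that involve 7 weeks became 0 without SPF knockout replicate 1 or 3 of 12 weeks or replicate 2 of 7 weeks, and 8 in each without replicate 2 of 12 weeks. With only the groups compared, the 6, 5 and 4 calls became 0, 0 and 2. The 4 also became 0 without conventional knockout replicate 1 of 7 weeks.

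A test of the difference of SPF knockouts from wild types at 12 weeks against that of conventional knockouts at 9 weeks was an addition, made once the data had been seen. No gene was called (0%). Sct had the largest value among the members, at -1.76 ± 0.40 (unadjusted p = 0.000216, adjusted p = 0.341), being at -1.67 from wild types in the former and 0.08 in the latter. Insl5 was at 0.76 (adjusted p = 0.88). The pattern of members in the 2 low groups is thus not shown to differ.

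Member genes were also read relative to Chga within the same array. This log2 difference moves with Chga as well as with the other gene, and whether Chga follows the whole lineage was not tested. The sign of the difference depends on the probe sets and says nothing on which transcript is more abundant, so only its change between groups is read. Chgb minus Chga was nearly constant, with group means between 2.17 and 2.45. Gcg minus Chga was 0.86 ± 0.22 (SD, n = 3) in wild types and 2.14 ± 0.34 in conventional knockouts at 9 weeks, without overlap. At 12 weeks it was 0.90 ± 0.20 in wild types and 2.21 ± 0.08 in SPF knockouts, again without overlap. In SPF knockouts at 9 weeks it was 2.07 ± 0.32, also above every wild type of that age. Conventional knockouts lay above every wild type of their age at 12 weeks too (1.63 ± 0.21), and at 7 weeks (1.44 ± 0.20 against 1.14 ± 0.10). No member was called between those groups. SPF knockouts at 7 weeks (1.37 ± 0.36) overlapped the wild types.

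Sct minus Chga moved in the same way at 9 weeks, from -1.36 ± 0.27 in wild types to 0.28 ± 0.20 in conventional knockouts. At 12 weeks it was -0.79 ± 0.26 in wild types and -0.09 ± 0.47 in SPF knockouts. Sst and Neurod1 stood higher relative to Chga at 9 weeks too, both without overlap. Sst minus Chga was -0.97 ± 0.41 in wild types and -0.01 ± 0.12 in conventional knockouts. Neurod1 minus Chga was -3.19 ± 0.16 and -2.52 ± 0.14. In wild types and SPF knockouts at 12 weeks, Sst minus Chga was -1.13 ± 0.39 and -0.31 ± 0.62. Neurod1 minus Chga was -2.89 ± 0.70 and -1.62 ± 0.58 there. Tph1 minus Chga overlapped in both comparisons. Insl5 minus Chga at 9 weeks was 1.67 ± 0.31 in wild types and 0.31 ± 1.01 in conventional knockouts, where the arrays ran from -0.47 to 1.44 and 1 of them lay within the wild types' range. At 12 weeks it was 1.23 ± 1.01 in wild types and 1.44 ± 1.46 in SPF knockouts, with overlap. Pyy minus Chga was 1.21 ± 0.24 in wild types and 1.75 ± 0.48 in conventional knockouts at 9 weeks. It was 0.61 ± 0.67 in wild types and 2.44 ± 0.63 in SPF knockouts at 12 weeks. These ratios are descriptions. With 3 arrays against 3, an exact test could not reach a p under 0.05.

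**Figure D3:**
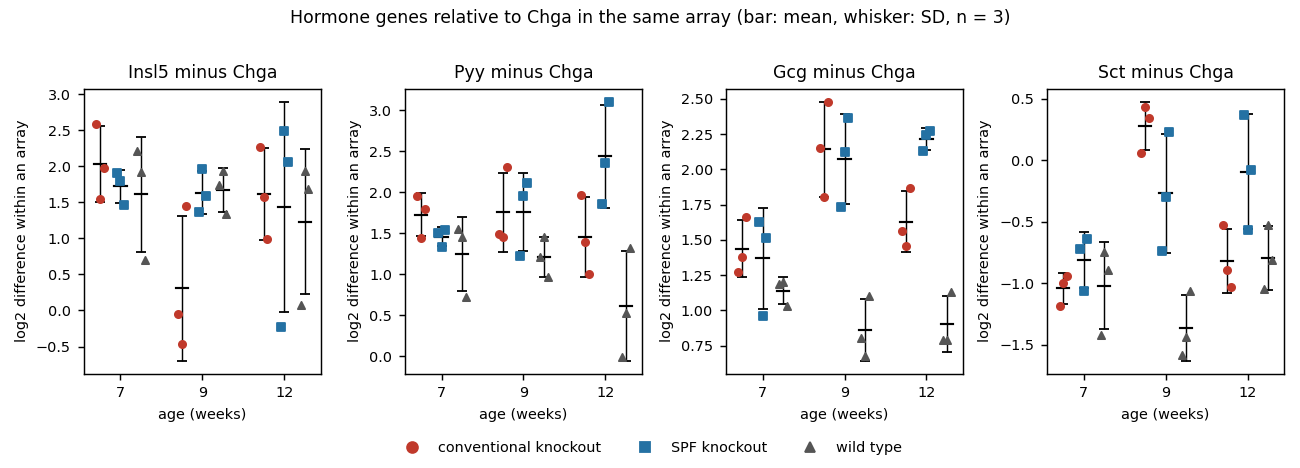
Log2 level of Insl5, Pyy, Gcg and Sct minus that of Chga on the same array (vertical axis), by age in weeks (horizontal axis) and kind of mice. Points are arrays, bars are means of 3 arrays and whiskers are SDs. Gcg minus Chga stood at 2.14 in conventional knockouts at 9 weeks and 2.21 in SPF knockouts at 12 weeks, against 0.86 and 0.90 in wild types of these ages. In conventional knockouts at 12 weeks it stood at 1.63.

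Over the 27 arrays the members ran together to different degrees, given as descriptions since arrays share groups and normalization. Chga and Chgb had a Pearson r of 0.99 (Spearman rho 0.95), and r was 0.97 for their deviations from the group means. Chgb and Tph1 had r of 0.98, or 0.96 for the deviations. Insl5 and Pyy, both of L cells, had r of 0.92 both ways, and 0.82 for the deviations without SPF knockouts at 12 weeks. Insl5 and Chga had r of 0.80, which was 0.51 for the deviations and 0.24 without SPF knockouts at 12 weeks. Gcg, also of L cells, had r of 0.83 with Chga. For the deviations Gcg had r of 0.92 with Tph1, 0.90 with Chgb and 0.89 with Chga, and 0.55 with Insl5. Sct and Sst had r of 0.80 for the deviations, whereas Insl5 had 0.24 with Sct and 0.21 with Sst.

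**Figure D4:**
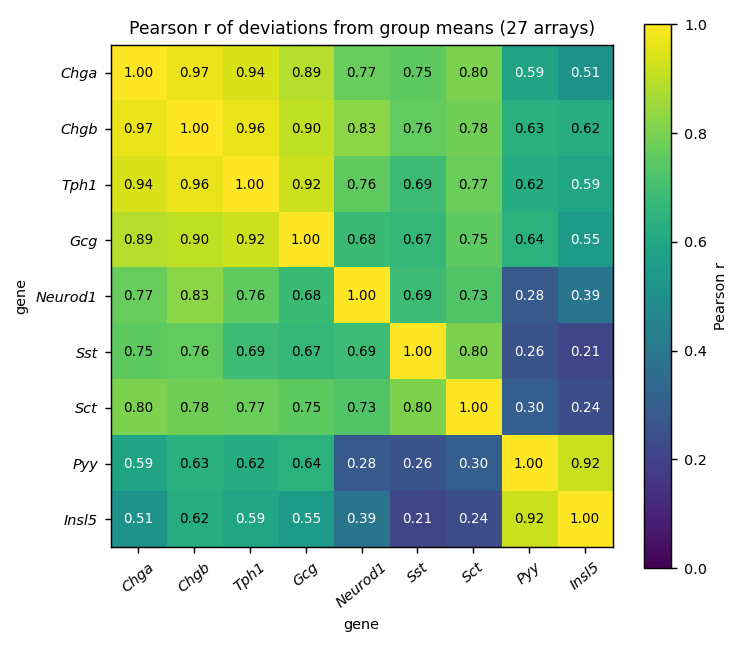
Pearson correlation between the 9 genes (both axes) over the 27 arrays, computed on each array's deviation from its group mean. The colour gives r. Values were 0.94 to 0.97 among Chga, Chgb and Tph1, 0.89 to 0.92 between these and Gcg, and 0.92 between Insl5 and Pyy.

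The genes most alike to each member over the 27 arrays, by Pearson r, were sought among the genes tested, with all members left out. For Chga they were Resp18 (0.97), Abcb1a, Ramp1, Fam189a2 and Cda, and for Chgb Resp18 (0.97), Egf, Tbc1d16, Sult1c2 and Cpe. Resp18 and Cpe encode granule proteins, Cpe being the carboxypeptidase that trims peptide hormones. For Tph1 they were Ces1d (0.95), Egf, Dixdc1, Enpp5 and Rgs17. Insl5 was most like Sval1 (0.96), Mptx1, Ggh, Nxpe4 and Adh1, and Pyy most like Tgm3 (0.92), Ces2g, Ano1, Pcx and Adh1, so that these L-cell genes had Adh1 in both lists. Gcg was most like Agt (0.92), P2rx4, Qsox1, Arhgap24 and Ptprn2, a protein of the granule membrane. Sct was most like Stra6l (0.94), Nts, Gcnt3, Car8 and Ppara, where Nts is the neurotensin gene. Sst was most like Aoc3 (0.94), Ppara, Peak1, Mbp and Abl1, and Neurod1 most like Azgp1 (0.92), Cd24a, Hsbp1l1, Tspan6 and Dpp10.

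The rest of the pathway was read from lists, whose medians below stand beside medians over all genes of at most 0.020 in size in these comparisons. Their counts stand beside shares over all genes of 9.86% lower and 14.2% higher in conventional knockouts at 9 weeks, 4.43% and 7.41% in SPF knockouts at 9 weeks and 16.6% and 18.2% at 12 weeks. Between conventional and SPF knockouts at 12 weeks 13.6% were lower and 11.1% higher. No list was tested against the other genes. Of 16 transcription factors of the lineage, 12 were measured. In conventional knockouts at 9 weeks 4 were lower than in wild types (median -0.18), among them Insm1, a zinc-finger factor of endocrine differentiation, at -0.73 ± 0.17 (adjusted p = 0.00427), Foxa2 at -1.09 and the LIM factor Isl1 at -1.12. In SPF knockouts Mnx1 was lower at 9 weeks (-0.44), and 3 were lower at 12 weeks (median -0.23), namely Insm1 at -0.77, Pax6 at -0.45 and Mnx1 at -0.37. Against SPF knockouts at 12 weeks, conventional knockouts had Insm1, Mnx1 and Nkx2-2 higher, by 0.77, 0.54 and 0.68.

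Granule genes were mostly lower where the members were lower. Of 23 genes for granule proteins, prohormone processing and amine handling, 22 were measured. In conventional knockouts at 9 weeks 11 were lower and 1 higher than in wild types, with a median of -0.46. Rab3c, a vesicle GTPase, was at -1.31 ± 0.24 (adjusted p = 0.00073) and Cadps, which primes dense-core vesicles, at -1.16. In SPF knockouts 6 were lower and 2 higher at 9 weeks (median -0.36), and 15 lower and 2 higher at 12 weeks (median -0.86). At 12 weeks Resp18 was at -2.16 ± 0.32 (adjusted p = 6.93e-05) and Cadps at -1.53. Against SPF knockouts, conventional knockouts at 12 weeks had 16 higher and 1 lower (median 0.72), with Cpe at 1.65 and Resp18 at 1.57. The exception in each of these comparisons was Gch1, which makes the pterin cofactor of tryptophan hydroxylase and is also expressed outside endocrine cells. It was higher by 1.18 in conventional knockouts at 9 weeks, by 0.98 and 1.84 in SPF knockouts at 9 and 12 weeks, and at -1.15 between conventional and SPF knockouts at 12 weeks. Pam, the amidating enzyme of peptide hormones, was the other gene higher in SPF knockouts, by 0.83 at 9 weeks and 0.57 at 12 weeks. Pam was higher than in wild types at 7 weeks too, by 1.17 in conventional and 1.17 in SPF knockouts, and in conventional knockouts at 12 weeks (1.32), and no other granule gene was called in these 3 comparisons.

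Other gut hormones moved in part. Of 18 listed, 16 were measured, and 5 were lower in conventional knockouts than in wild types at 9 weeks. Ppy (pancreatic polypeptide) was at -1.37, Nmu (neuromedin U) at -1.44 and Vip, a peptide of enteric neurons, at -1.12. In SPF knockouts 4 were lower at 9 weeks, and 7 were lower and 1 higher at 12 weeks. Nts was at -2.97 ± 0.56 (adjusted p = 0.000456), Grp, a neuronal peptide, at -2.20 and Nmu at -1.62. Against SPF knockouts at 12 weeks, conventional knockouts had 3 higher, Nts at 2.16 and Ppy at 1.04 among them, and Tac1 lower at -1.92.

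On the receiving side, 21 of 25 receptors, the serotonin transporter and degrading enzymes were measured. In conventional knockouts at 9 weeks 7 were lower than in wild types, including the somatostatin receptor Sstr2 at -1.07 ± 0.18 (adjusted p = 0.000415), the serotonin receptors Htr4 at -1.22 and Htr3a at -0.73. In SPF knockouts 2 were lower at 9 weeks (Sstr2 at -0.78 and Htr3a at -0.65) and 9 at 12 weeks. Maoa, which breaks down serotonin, was at -1.12 there, Dpp4, which cleaves glucagon-like peptides, at -1.10, and the peptide YY receptor Npy2r at -0.76. Conventional knockouts had 8 higher than SPF knockouts at 12 weeks, with Sstr2 at 0.94. Of 20 nutrient and bile acid sensors, 14 were measured. The fatty acid receptor Ffar4 was higher than in wild types in conventional knockouts (0.86) and in SPF knockouts (1.14) at 9 weeks. In SPF knockouts at 12 weeks 3 sensors were higher and 2 lower, with Cckar, a cholecystokinin receptor, at -2.05 and Olfr78 at -1.49. These counts are near the shares over all genes.

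Markers of other cells moved with the same comparisons. Of 16 genes of the whole epithelium, 3 were higher and 1 lower in conventional knockouts at 9 weeks and 3 higher and 1 lower in SPF knockouts at 12 weeks, with medians of 0.08 and 0.05. The mean of this list lay between 11.47 and 11.97 on all 27 arrays. Goblet cell markers were lower for 2 of 12 genes in conventional knockouts at 9 weeks (median -0.22, Clca1 at -1.75). In SPF knockouts at 12 weeks 4 of 12 were lower (median -0.44, Clca1 at -2.27). None was higher in either comparison. Over all genes 9.86% and 16.6% were lower, and the goblet counts were not tested against these shares. Smooth muscle genes were lower for 8 of 12 in conventional knockouts at 9 weeks (median -0.61), 3 of 12 in SPF knockouts at 9 weeks and all 12 in SPF knockouts at 12 weeks (median -1.07). Enteric neuron genes were lower for 10 of 15 (median -0.72), 2 of 15 and 13 of 15 (median -0.86). Leukocyte genes were higher for 14 of 15 (median 1.48), 2 of 15 and 13 of 15 (median 1.56). Against SPF knockouts at 12 weeks, conventional knockouts had 8 goblet (median 0.58), 11 smooth muscle and 6 neuron genes higher and 13 leukocyte genes lower. The part of these cells in the members' differences was not tested.

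The same arrays stood out in both kinds of list. The mean of the leukocyte list was 8.77, 8.81 and 7.90 in conventional knockouts at 9 weeks. Replicate 3, which had the lowest of these, had the highest value of all 9 members in its group. The list mean was 6.48, 7.04 and 8.02 in SPF knockouts at 9 weeks, and replicate 3, the highest, had the lowest value of all 9 members in its group. It was 8.78, 7.27 and 9.50 in SPF knockouts at 12 weeks, and replicate 2, the lowest, had the highest value of all 9 members in its group. On the other 18 arrays it lay between 6.08 and 6.80.

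**Figure D5:**
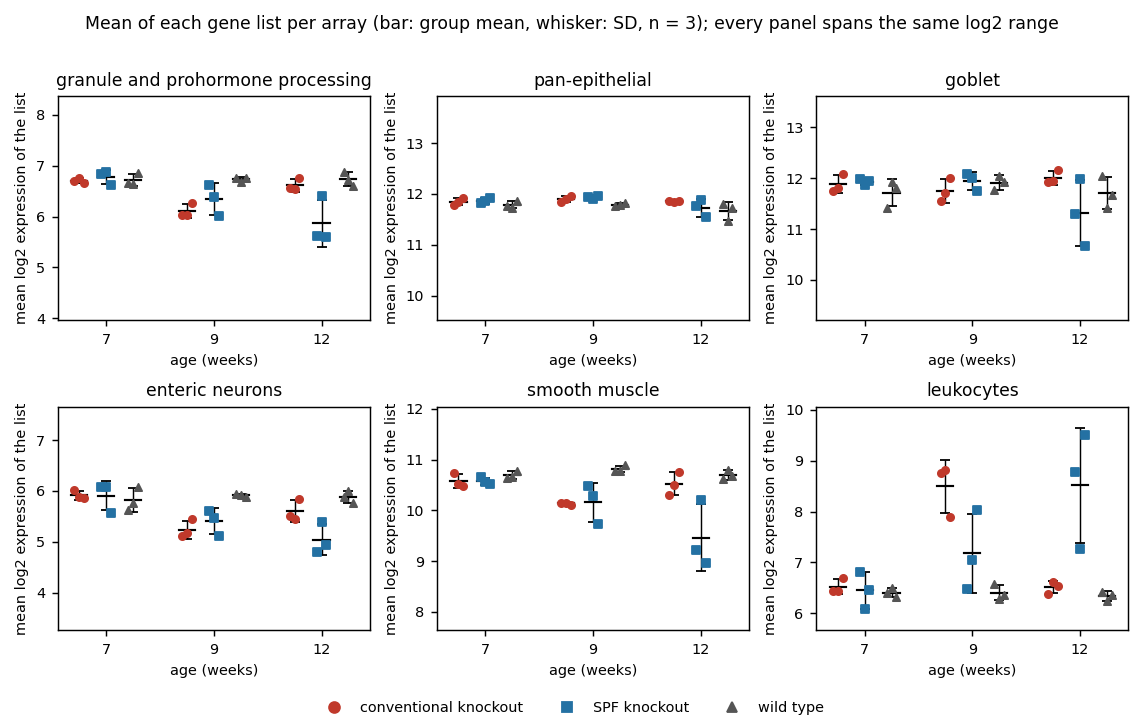
Mean log2 expression of 6 gene lists (granule genes, pan-epithelial, goblet, enteric neuron, smooth muscle and leukocyte markers) on each array (vertical axis, same span in each panel), by age in weeks (horizontal axis) and kind of mice. Points are arrays, bars are means of 3 arrays and whiskers are SDs. The granule list was at 6.03 to 6.27 in conventional knockouts at 9 weeks and 5.59 to 6.40 in SPF knockouts at 12 weeks, below the wild types of these ages (6.68 to 6.77 and 6.60 to 6.87), and the leukocyte list was above them.

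Lists for pancreas and for position along the hindgut were read as well. Of 12 genes listed for acinar pancreas, 3 were lower than in wild types in conventional knockouts at 9 weeks (median -0.11) and 3 in SPF knockouts at 12 weeks (median 0.47). In both these were Clps, Sycn and Cela1. Sycn was bright on most arrays (median 11.66), while the acinar enzymes Cpa1, Cpb1 and Cela2a had medians of 3.70, 3.24 and 3.03. The mean of the acinar list was 7.97 on wild-type replicate 1 of 7 weeks and 4.63 to 6.12 on the other 26 arrays. Of 9 islet genes, G6pc2, Slc2a2 and Slc30a8 were the dimmest and read at most 3.21, 3.31 and 3.16 on any array. Others were brighter, with the insulin gene Ins2 at 5.14 to 5.85 and Iapp at 3.81 to 5.93. Ppy, which the list of gut hormones also holds, was lower in conventional knockouts at 9 weeks. Of 9 homeobox genes that mark position along the hindgut 8 were measured, and 2 were lower in conventional knockouts at 9 weeks (median -0.62). Hoxb13, a marker of the distal end, was at -2.36 ± 0.55 (adjusted p = 0.00413) in conventional knockouts at 9 weeks, with Hoxd10 at -1.69. In SPF knockouts at 12 weeks 1 was lower, Hoxd10 at -1.42, and the median was -0.0053. L cells are more frequent toward the distal colon, and whether the piece of colon sampled had a part in the L-cell values was not tested.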

How the data were processed

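RNA from full-thickness mouse colon was hybridized to Affymetrix arrays, 27 samples in 9 groups of 3. A rat array is named in the design text, whereas all probe sets match a mouse array. The authors normalized the deposited log2 values with affyPLM, per the labels. Its version and its background and summary steps were not given in the sources used here. Of 45101 probe sets 64 controls were left out, and each of the 9010 genes with more than 1 probe set was represented by that with the highest mean. A model with a mean for each of the 9 groups was fitted with limma 3.58.1 in R 4.3.3 to 18193 genes over all arrays (18 residual degrees of freedom), with eBayes and Benjamini-Hochberg adjustment over all genes of a contrast, and was tested on simulated data. The number of arrays limits the precision. Labels of conventional knockouts were read by elimination from the 3 kinds of mice.

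The members and lists were chosen with earlier results of these data known. Named are all members and up to 3 called genes per list and comparison with the smallest adjusted p. The 5 genes most correlated with each member, other members left out, are named too. Of 235 list genes 205 were measured and the others were not analysed here. Promoters are from RefSeq (GRCm38.p6), and figures were drawn with matplotlib 3.10.9.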

Additional observations from a re-analysis of the deposited data

Results flagged for a closer look

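Differences between kinds that themselves differed between ages, by the interaction test in limma, were found 15 times among the members. For SPF knockouts against wild types, 12 minus 7 weeks, the values were -2.21 for Chga, -2.18 for Chgb, -2.37 for Tph1, -1.72 for Sct and -1.79 for Sst. For conventional against SPF knockouts, 12 minus 9 weeks, they were 2.33 for Chga, 2.34 for Chgb, 2.57 for Tph1, 3.82 for Insl5, 1.67 for Gcg and 1.31 for Neurod1. For the same kinds, 12 minus 7 weeks, they were 2.16 for Chga, 1.99 for Chgb, 1.67 for Sct and 1.77 for Sst. Adjusted p lay between 0.00578 and 0.0431.

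In Pyy and Sct the groups compared did not overlap at either of the ages given, and the side differed between these ages. The share of all genes with such a change of side is not given here. Non-overlap in a single direction was common. It held for 19.8% of all genes for conventional knockouts below wild types at 9 weeks, and for 13.9% for conventional above SPF knockouts at 12 weeks. Pyy in conventional knockouts was at -1.02 against wild types at 9 weeks and at 0.42 at 12 weeks (adjusted p = 0.607). The test of that change gave 1.44 (adjusted p = 0.104). For Pyy at 12 weeks the lowest conventional knockout read 9.36 and the highest wild type 9.34. Sct in conventional against SPF knockouts was at -0.44 at 7 weeks (adjusted p = 1) and at 1.23 at 12 weeks (adjusted p = 0.0046), and its change is the value of 1.67 above.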

How the results depend on the processing

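None of the 62 member differences called in any comparison reversed its direction under an alternative. Calls lost were 9 with the replicate block, 1 with quantile normalization again, 3 with arrays centred on pan-epithelial markers, 6 with all probe sets, 1 with probe sets averaged per gene and 31 with only the groups compared. None was lost with centring on array medians, an intensity trend or array weights, nor among the 53 tested without the 40% of genes of lowest mean, which leaves out Neurod1. Leaving out each of the 27 arrays lost 32 of the 62 at least once. The arrays were normalized by the authors and array background was not examined, and in bulk colon small populations are read through few probe sets.

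Counts of members called moved as follows. SPF knockouts against wild types at 9 weeks (1) gave 0 with the replicate block, all probe sets, the mean of probe sets or only the groups compared, 2 with pan-epithelial centring and 3 with array weights. Conventional against SPF knockouts gave 4 at 9 weeks (0) with array weights, 0 at 12 weeks (8) with only the groups compared, and 3 for the mean of ages (0) with array weights. Conventional knockouts against wild types, mean of ages (3), gave 5 with pan-epithelial centring, array weights or only the groups compared. In conventional knockouts, 9 minus 7 weeks (3) gave 5 with the replicate block or pan-epithelial centring, 7 with array weights and 6 with only the groups compared. There, 12 minus 9 weeks (2) gave 4 with the replicate block or median centring, 1 with pan-epithelial centring or all probe sets, 7 with array weights and 5 with only the groups compared. In SPF knockouts, array weights gave 3 for 9 minus 7 weeks (0) and 9 for 12 minus 9 weeks (0), and only the groups compared gave 2 for 12 minus 7 weeks (9). Of the changes of differences, conventional against SPF knockouts, 12 minus 9 weeks (6), gave 0 with only the groups compared. SPF knockouts against wild types, 12 minus 7 weeks (5), gave 9 with array weights and 0 with only the groups compared, and conventional against SPF knockouts (4) gave 9 and 2. The causes were not tested.

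Leaving out 1 array gave 3 to 6 members at 9 weeks in conventional knockouts compared with wild types, 0 to 3 and 6 to 9 for SPF knockouts against wild types at 9 and 12 weeks and 4 to 9 for conventional against SPF knockouts at 12 weeks. For means of ages in the same order of kinds it gave 2 to 5, 5 to 9 and 0 to 2. With age it gave 1 to 6 and 0 to 6 for 9 minus 7 and 12 minus 9 weeks in conventional knockouts, and 0 to 9 and 5 to 9 for 12 minus 9 and 12 minus 7 weeks in SPF knockouts. Changes of differences gave 5 to 9, 0 to 8 and 0 to 8 in the order above.

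Replicate numbers did not pair the arrays. Same-numbered arrays of an age had correlations of deviations between -0.44 and 0.26 (27 pairs), and the replicate block is given for its counts alone, such as 4 members (6 without it) at 9 weeks in conventional knockouts compared with wild types. Centring on pan-epithelial markers moved the median of all genes by -0.11 and -0.20 at 9 and 12 weeks in conventional knockouts compared with wild types, -0.15 for SPF knockouts against wild types at 9 weeks and -0.13 for conventional against SPF knockouts at 12 weeks. The share of called genes that were higher went from 59.0% to 32.8%, 58.5% to 11.6%, 62.6% to 18.7% and 45.0% to 26.4% there, and from 52.2% to 41.1% for SPF knockouts against wild types at 12 weeks.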
